A study of Arabidopsis thaliana with 30 samples.

Results

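The cellulose synthase (CESA) genes of Arabidopsis encode the catalytic subunits of the plasma membrane complexes that make cellulose. The 10 members, CESA1 (AT4G32410), CESA2 (AT4G39350), CESA3 (AT5G05170), CESA4 (AT5G44030), CESA5 (AT5G09870), CESA6 (AT5G64740), CESA7 (AT5G17420), CESA8 (AT4G18780), CESA9 (AT2G21770) and CESA10 (AT2G25540), were taken by gene identifier from the 37051 genes counted. Their transcripts were followed through sorted nuclei of the second bottom-most internode of inflorescence stems of the accession Col-0. Each homozygous line carried histone H4 fused to GFP under 1 promoter. GFP-positive nuclei were collected from SCRpro:H4-GFP (starch sheath), LTP1pro:H4-GFP (epidermis), VND7pro:H4-GFP (differentiating vessel elements), NST3pro:H4-GFP (fibers), PXYpro:H4-GFP (proximal cambium and differentiating xylem), APLpro:H4-GFP (differentiated phloem) and SMXL5pro:H4-GFP (distal cambium and differentiating phloem) plants, and GFP-negative nuclei from the NST3pro, APLpro and SMXL5pro lines. No group received a treatment, and all lines shared the reporter protein. Each of these 10 groups had 3 libraries, named below by the serial number in their labels.

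A tissue is represented here by whatever nuclei its promoter marked, and whether a line descends from 1 transformant is not given in the sources used here. GFP-negative nuclei were sorted in a gate of their own and are a mixture of tissues. In such bulk samples, fewer nuclei of a type and less RNA per nucleus cannot be told apart. The study left out replicates 2 (NST3pro), 6 (VND7pro), 15 (APLpro) and 19 (LTP1pro) when it compared tissues, partly because known genes departed from their patterns, and the comparisons among tissues below use the other 17 GFP-positive libraries. Libraries of GFP-positive nuclei held 1918733 to 18335693 reads on genes, and those of GFP-negative nuclei 725545 to 13026007. Reads on the 10 CESA genes made up 0.120% to 0.756% of these reads. Of 19 promoter and marker genes of the tissues, 18 had their highest mean in the assigned line, the exception being LTP1 itself. Since the study judged its libraries partly by such genes, the libraries and this count are not independent. The labels do not say whether the libraries of a group came from separate plants, so p-values measure the spread between these libraries, which may in part be technical.

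Primary walls are laid down while cells expand, and their cellulose is made by complexes that need CESA1, CESA3 and a member of the CESA6-like group, in which CESA2, CESA5, CESA6 and CESA9 are counted. Secondary walls are deposited inside the primary wall after expansion, most heavily in vessel elements and fibers, and depend on CESA4, CESA7 and CESA8 together. Loss of any of these last genes collapses the xylem vessels, which gave them the names IRX5, IRX3 and IRX1. CESA10 is the closest relative of CESA1. Over aligned coding bases the most similar pairs were CESA5 and CESA6 with 85.7% identity, CESA2 and CESA9 with 84.5%, and CESA1 and CESA10 with 83.9%, whereas CESA4, CESA7 and CESA8 shared 67.7% to 68.4% with each other. Exact stretches of 50 bases, the read length, tell even these pairs apart. Only CESA5 and CESA6 held such a stretch that recurs elsewhere in the genome, 1 of 5498 and 1 of 5647. The authors also kept reads that trimming had shortened, which this count does not cover.

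The members lie on chromosomes 2, 4 and 5. The 250 bases before the annotated start of CESA4, CESA7 and CESA8 are shown because these genes had the largest differences between tissues and varied together. They were read from the RefSeq assembly TAIR10.1, 5′ to 3′ on the strand of the gene. The study aligned its reads to TAIR10 and counted them on Araport11 genes, whose start sites may differ from those of RefSeq. Capitals mark matches to 2 motifs searched on both strands. The SMRE, an element bound by secondary wall MYB factors, was searched as ACCNANN with A or T at position 4, A or C at position 6 and C or T at position 7. The TERE, an element known from promoters active in tracheary elements, was searched with any base allowed at positions 4 and 10 of its 11, and its match is the longer run of capitals below.
CESA4 (chr5:17714140-17714389, plus strand): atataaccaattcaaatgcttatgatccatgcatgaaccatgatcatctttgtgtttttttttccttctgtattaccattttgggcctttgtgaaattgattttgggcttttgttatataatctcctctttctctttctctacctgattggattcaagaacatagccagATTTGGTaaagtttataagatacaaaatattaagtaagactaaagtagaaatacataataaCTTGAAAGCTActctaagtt
CESA7 (chr5:5741501-5741750, minus strand): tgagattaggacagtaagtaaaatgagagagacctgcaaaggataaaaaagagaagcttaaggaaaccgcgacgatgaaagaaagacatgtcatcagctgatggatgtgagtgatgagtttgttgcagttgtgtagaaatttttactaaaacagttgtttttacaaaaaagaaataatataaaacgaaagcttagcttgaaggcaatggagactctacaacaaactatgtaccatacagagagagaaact
CESA8 (chr4:10316887-10317136, minus strand): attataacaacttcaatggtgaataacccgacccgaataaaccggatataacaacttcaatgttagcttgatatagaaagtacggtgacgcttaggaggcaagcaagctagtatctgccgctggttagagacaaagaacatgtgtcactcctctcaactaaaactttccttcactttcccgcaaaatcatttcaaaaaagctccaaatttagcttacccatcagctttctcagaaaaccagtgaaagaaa

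CESA4 held 1 TERE match, which began 20 bases before the annotated start, and 1 SMRE match on the opposite strand, 81 bases before it. The 2 matches do not overlap. The TERE occurred in 101 of 27443 promoters of this length, or 0.368%. Among the other members, SMRE matches stood 104 bases before the start of CESA1, 123 before CESA5 and 234 before CESA9, and 29.4% of all promoters held at least 1. The windows of CESA7 and CESA8 contained neither spelling. A match is a string of letters and says nothing of binding.

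To determine where in the stem each member is transcribed, read counts were compared among the 7 tissues. In the test across tissues, 8 of the 10 members differed at an adjusted p of 0.01 (edgeR quasi-likelihood F test, Benjamini-Hochberg adjustment over 32659 genes), against 26.1% of all genes tested. The F statistic was 100.5 for CESA8, 77.8 for CESA4, 51.2 for CESA7 and 32.6 for CESA5, and lower for the others. CESA9 (adjusted p 0.0688) and CESA10 (adjusted p 0.0219) did not pass, although CESA10 did with DESeq2 (adjusted p 8.57e-05) and with RLE size factors (0.00684), giving 9 members. With all 21 GFP-positive libraries 5 members passed, and CESA1 (adjusted p 0.0572), CESA2 (0.113) and CESA3 (0.0123) no longer did. Leaving out any 1 of the 17 libraries kept the count at 8. Of the 21 pairs of tissues, 16 differed by more than 2-fold at this threshold for CESA8, 15 for CESA4, 13 for CESA7 and 11 for CESA5, against 9.01% of all combinations of a gene and a pair. The counts were 6 for CESA1, CESA3 and CESA6, 2 for CESA2 and CESA10 and 1 for CESA9. With all 21 libraries 5 pairs were called for CESA4 and CESA8 and 4 for CESA5 and CESA7. All 10 members passed the filter on low counts.

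**Figure D1:**
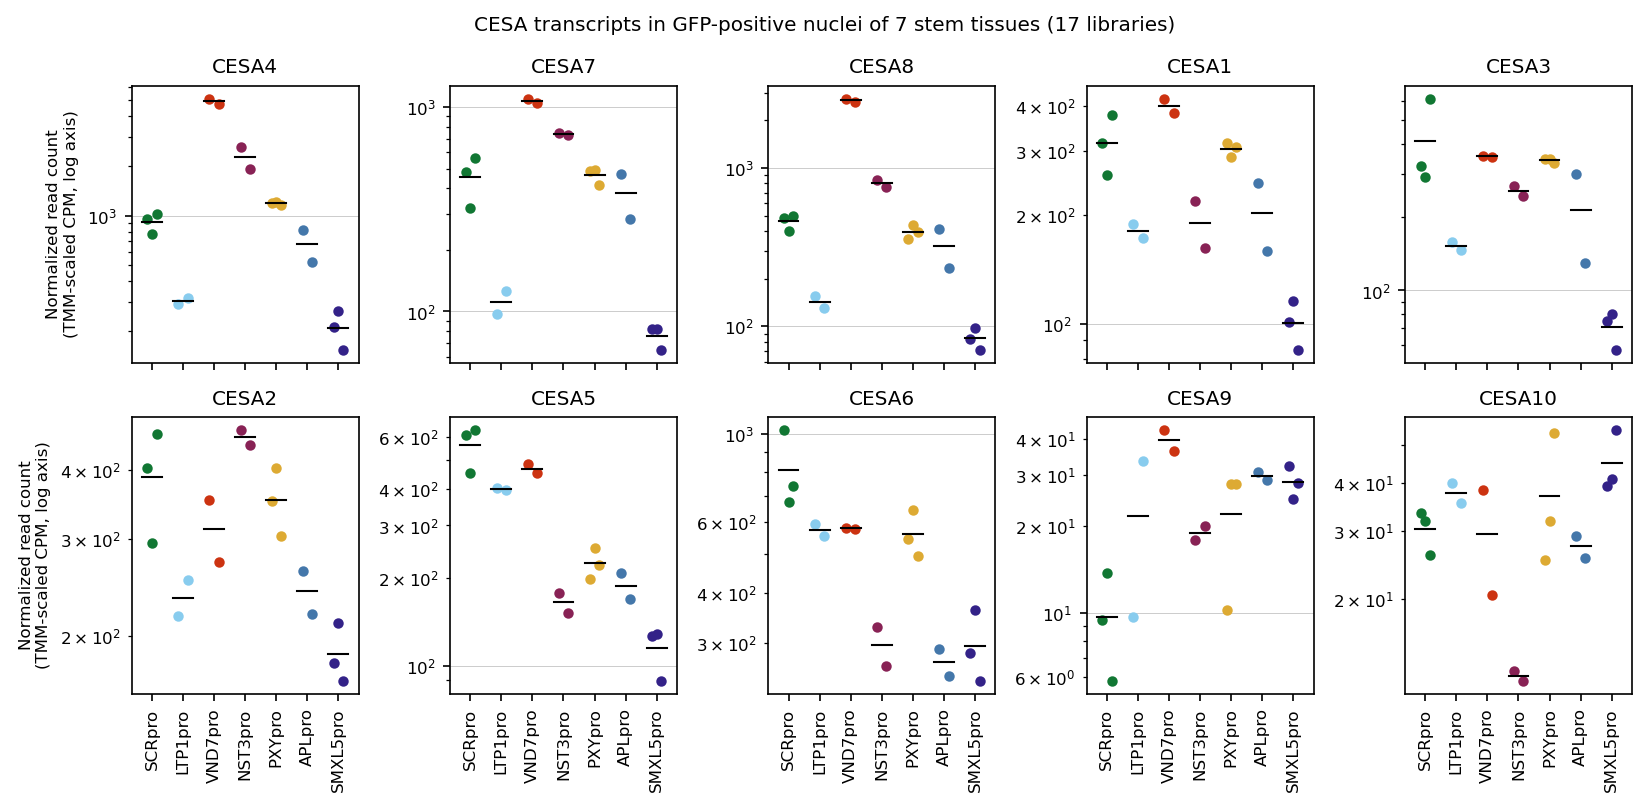
Normalized read counts (TMM-scaled CPM, logarithmic axes whose ranges differ between panels) of the 10 CESA genes in the 17 libraries that the study used among tissues. Points are libraries and bars are means. The VND7pro libraries stand highest for CESA4, CESA7 and CESA8, and the SMXL5pro libraries lowest.

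CESA4 differed widely among the tissues. Normalized read counts, which are counts scaled to library size on the CPM scale with TMM factors, were 5105 and 4717 in VND7pro nuclei and 2615 and 1914 in NST3pro nuclei. They were 1192, 1211 and 1165 in PXYpro, 960, 772 and 1025 in SCRpro, and 824 and 524 in APLpro nuclei. Epidermis nuclei of the LTP1pro line had 291 and 317, and SMXL5pro nuclei 211, 266 and 154. Vessel element nuclei thus lay above all others without overlap, and in this order of means only the step from VND7pro to NST3pro passed the threshold among neighbours (adjusted p 0.00876). The steps from NST3pro to PXYpro (adjusted p 0.0188) and from APLpro to LTP1pro (0.0115) missed it, and the remaining neighbours had adjusted p of 0.31 or more.

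CESA8 followed the same order at its ends but fell off more steeply. VND7pro libraries had 2748 and 2616 normalized read counts and NST3pro libraries 844 and 760. SCRpro nuclei had 483, 399 and 501, PXYpro nuclei 354, 436 and 394, and APLpro nuclei 412 and 235, and the libraries of these tissues overlapped. LTP1pro nuclei had 156 and 131, and SMXL5pro nuclei 83.6, 98.3 and 70.8. Among neighbours, the steps from VND7pro to NST3pro (adjusted p 0.000115) and from APLpro to LTP1pro (0.00627) passed. In RefSeq TAIR10.1 the opposite-strand genes that overlap CESA8 cover 13.2% of its gene body. Where the Araport11 genes used for counting overlap likewise, which was not checked, reads falling there could be assigned to neither gene. The counts of CESA8 would then be understated in every library. For the other members the overlap was at most 1.64%.

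CESA7 differed less between the tissues at the top of the order. Its normalized read counts were 1100 and 1051 in VND7pro nuclei and 744 and 726 in NST3pro nuclei, without overlap, but the difference did not pass the threshold (adjusted p 0.191). PXYpro nuclei had 485, 493 and 414, SCRpro nuclei 481, 322 and 563 and APLpro nuclei 473 and 284. LTP1pro nuclei had 97.1 and 127, and SMXL5pro nuclei 82.3, 81.9 and 64.7. Only the step from APLpro to LTP1pro passed among neighbours in this order (adjusted p 0.000351).

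Transcripts of the secondary wall set were thus read in every tissue sorted, also in starch sheath and phloem nuclei. Markers of vessel elements were lower there than in VND7pro libraries, but their sums reached higher values than in the remaining tissues. The summed normalized read counts of XCP1, VND6 and VND7 were 259 and 278 in VND7pro libraries, 37.2 to 66.3 in SCRpro, 55.1 to 58.9 in APLpro, 25.1 to 44.3 in PXYpro, 22.3 to 41.3 in NST3pro, 30.1 to 40.4 in LTP1pro and 34.9 to 45.8 in SMXL5pro libraries, and none of these markers was at 0 in any library. The summed fiber markers NST3 and NST1 reached 259 and 314 in NST3pro and 158 and 175 in VND7pro libraries, 159 to 200 in PXYpro, 97.1 to 135 in SCRpro, 95.1 to 127 in APLpro, 54.1 to 71.2 in SMXL5pro and 40.0 to 40.7 in LTP1pro libraries. Reads on pseudogenes were taken as a rough measure of background, a use that was not checked. They made up 4.78% to 6.52% of SMXL5pro libraries, where most normalized read counts of CESA genes were lowest, and 4.41% and 4.56% of the LTP1pro libraries used. In the VND7pro libraries used, where CESA4, CESA7 and CESA8 were highest, they made up 1.009% and 1.10%. The ratio of intergenic to exon reads given in the paper ran the other way, lowest in SMXL5pro and highest in VND7pro nuclei. The ratio of intron to exon reads given there was highest in LTP1pro and SMXL5pro and lowest in NST3pro nuclei. The part of other nuclei or of background in these levels was not tested.

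CESA1 and CESA3, which are needed in primary wall complexes, also had their lowest levels in SMXL5pro nuclei. CESA1 had 419 and 383 normalized read counts in VND7pro nuclei, 316, 257 and 377 in SCRpro, 317, 289 and 307 in PXYpro, 245 and 159 in APLpro, 218 and 161 in NST3pro, 188 and 173 in LTP1pro, and 101, 116 and 84.5 in SMXL5pro nuclei. CESA3 was highest on average in SCRpro nuclei, with 324, 293 and 611, of which replicate 18 stood well above the rest, and had 357 and 352 in VND7pro, 346, 347 and 332 in PXYpro, 267 and 245 in NST3pro, 300 and 129 in APLpro, 159 and 147 in LTP1pro, and 74.9, 80.4 and 56.9 in SMXL5pro nuclei. For neither gene did neighbouring tissues in the order of means pass the threshold (lowest adjusted p 0.0365 for CESA1 and 0.0421 for CESA3, both between LTP1pro and SMXL5pro).

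Of the CESA6-like genes, CESA5 and CESA6 had their highest mean normalized read counts in SCRpro nuclei, and CESA2 in NST3pro nuclei. CESA5 had 605, 452 and 633 normalized read counts in SCRpro, 485 and 450 in VND7pro and 402 and 394 in LTP1pro nuclei, above all libraries of the remaining tissues, which lay between 89.1 and 252. CESA6 reached 1024, 676 and 739 in SCRpro nuclei, 582 and 578 in VND7pro, 595 and 554 in LTP1pro, and 546, 646 and 493 in PXYpro nuclei. In NST3pro, SMXL5pro and APLpro nuclei CESA6 lay between 240 and 362. CESA2 was highest in fiber nuclei, with 473 and 444, although SCRpro replicate 18 reached 466, and lowest in SMXL5pro nuclei with 179, 211 and 165. In TPM, CESA2 was instead lower in VND7pro nuclei, with 92.7 and 69.2, than in SMXL5pro nuclei, with 104, 116 and 103. Neighbouring tissues did not pass for CESA2 or CESA6 (lowest adjusted p 0.318 and 0.0153), and CESA5 passed the p threshold between LTP1pro and PXYpro (adjusted p 0.00905) with a change below 2-fold.

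CESA9 and CESA10 had the lowest levels of the members. CESA9 lay between 5.81 and 43.1 normalized read counts over the 17 libraries and was highest in VND7pro nuclei, with 43.1 and 36.3. CESA10 lay between 12.3 and 55.0, with 13.1 and 12.3 in NST3pro nuclei below all other libraries. Per base of gene body, reads on CESA9 were 4.52 ± 0.76 times as dense as reads on pseudogenes in VND7pro nuclei (SD, n = 2) and 0.906 ± 0.194 times in SCRpro nuclei (n = 3). CESA10 ranged from 1.22 ± 0.00834 times in NST3pro (n = 2) to 3.33 ± 1.57 times in VND7pro nuclei (n = 2).

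The first contrast set differentiating vessel elements against fibers, both of which form secondary walls. Read counts in VND7pro nuclei were higher than in NST3pro nuclei for 4 members, against 3.98% of all genes called higher. CESA8 differed most, with 2682 ± 92.9 normalized read counts in VND7pro and 802 ± 59.3 in NST3pro nuclei (SD, n = 2 each) and a log2 fold change of 1.74 ± 0.26 (SE, edgeR adjusted p 0.000115). CESA5 had 468 ± 24.8 against 164.9 ± 17.98 (log2 fold change 1.504 ± 0.24 SE, adjusted p 0.000272), CESA4 had 4911 ± 274 against 2265 ± 496 (1.12 ± 0.27, 0.00876), and CESA1 had 401 ± 25.6 against 190 ± 40.4 (1.08 ± 0.25, 0.00717). CESA7, with 1075 ± 34.8 against 735 ± 12.5, had a log2 fold change of 0.55 ± 0.27 that did not pass (0.191), nor did CESA2, whose value of -0.55 ± 0.25 had the opposite sign (0.141). With all 21 libraries none of the members was called in this contrast (adjusted p 0.141 for CESA8 and 0.478 for CESA4), and the VND7pro replicate added there, replicate 6, had 1621 normalized read counts of CESA4 and 915 of CESA8. The adjusted p of CESA1 and CESA4 exceeded 0.01 without any 1 of the NST3pro and VND7pro libraries used and without several libraries of other tissues, up to 0.112 for CESA4, whereas CESA5 and CESA8 passed without any 1 library.

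In VND7pro against PXYpro nuclei, 4 members were higher, against 4.25% of all genes. The log2 fold changes were 2.76 ± 0.23 for CESA8, 2.05 ± 0.24 for CESA4, 1.21 ± 0.24 for CESA7 and 1.07 ± 0.22 for CESA5 (SE, edgeR adjusted p 0.00178 or less). CESA1, CESA2, CESA3 and CESA6 had values between -0.17 and 0.40, none of which passed. With all 21 libraries none of the members was called, and CESA8 had 2.31 (adjusted p 0.0208). CESA5 and CESA7 also lost their call without VND7pro replicate 4 or 5, CESA5 without PXYpro replicate 7 and CESA7 without PXYpro replicate 9. Over the mean of the other 6 tissues, VND7pro nuclei were higher for CESA8 (3.22 ± 0.15), CESA4 (2.83 ± 0.16) and CESA7 (1.93 ± 0.18), or 3 members against 9.06% of all genes. CESA7 was no longer called there with all 21 libraries (1.495, adjusted p 0.0142). CESA1 and CESA5 passed the p threshold in that contrast with changes just under 2-fold (0.99 ± 0.18 and 0.98 ± 0.17).

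**Figure D2:**
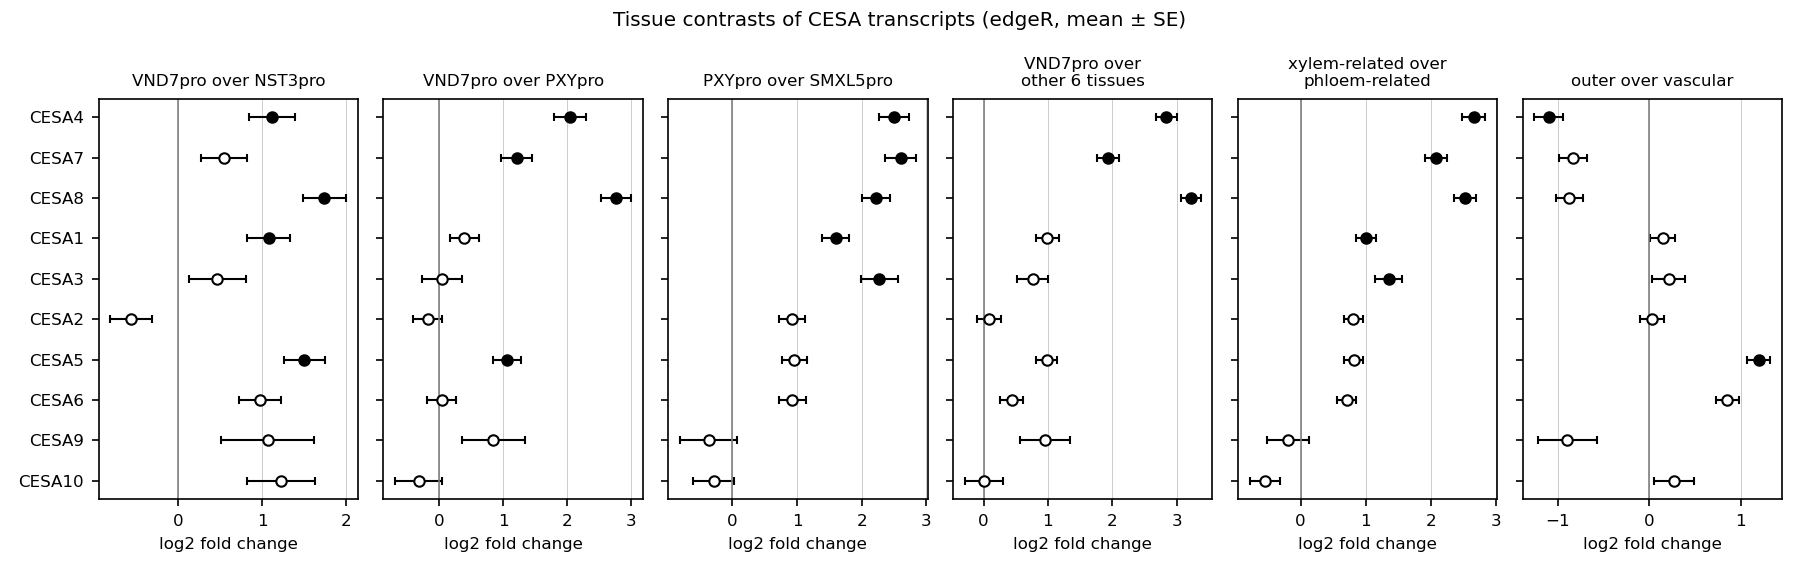
Log2 fold changes of the 10 CESA genes in 6 contrasts among tissues (points, with SE as bars; horizontal axes differ between panels). Filled points passed an adjusted p of 0.01 and an absolute log2 fold change above 1. CESA4 is filled in every panel and CESA8 in all but that of outer over vascular tissues.

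Between the domains of the cambium, PXYpro nuclei were higher than SMXL5pro nuclei for 5 members, against 12.4% of all genes. The secondary wall genes CESA7 (2.60 ± 0.24), CESA4 (2.501 ± 0.23) and CESA8 (2.23 ± 0.22) were called together with the primary wall genes CESA3 (2.27 ± 0.29) and CESA1 (1.60 ± 0.21; log2 fold change ± SE, largest edgeR adjusted p 6.04e-06). CESA2, CESA5 and CESA6 had log2 fold changes of 0.93, 0.96 and 0.93 with adjusted p below 0.01, so they missed only the fold threshold. All of them passed it without SMXL5pro replicate 11, giving 8 members. In TPM, counts divided by gene body length and scaled to the same total per library, these genes overlapped between both tissues. CESA2 had 102.1 to 123.5 TPM in PXYpro and 102.9 to 115.7 in SMXL5pro nuclei. CESA5 had 65.24 to 80.98 and 58.08 to 77.2 in this order, and CESA6 169.4 to 201.9 and 152.5 to 202.3. CESA1, CESA3, CESA4, CESA7 and CESA8 stayed higher in all PXYpro libraries in TPM. CESA9 (-0.37) and CESA10 (-0.29) did not pass. With all 21 libraries 3 members were called, without CESA1 and CESA8. Size factors of the RLE method in place of TMM moved the median of all genes in this contrast to -0.57, against -0.22, and left the count of members at 5, while the share of all calls that were higher was 75.6%, against 85.9%.

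Xylem-related tissues (VND7pro, NST3pro and PXYpro) had higher levels than phloem-related tissues (SMXL5pro and APLpro) for 5 members, against 13.3% of all genes. The log2 fold changes were 2.65 ± 0.18 for CESA4, 2.52 ± 0.17 for CESA8, 2.08 ± 0.18 for CESA7, 1.35 ± 0.21 for CESA3 and 1.00 ± 0.16 for CESA1 (SE, largest edgeR adjusted p 3.48e-05), while the median of all genes tested was -0.45. Of all genes called, 55.8% were higher in xylem-related tissues, or 36.4% with RLE size factors, which moved the median to -0.73. CESA1 stood just above the fold threshold and lost its call with all 21 libraries (1.09, adjusted p 0.0112), under RLE or DESeq2 scaling (0.74 in both), without a filter on low counts and without APLpro replicate 14 (0.86), NST3pro replicate 1, SMXL5pro replicate 12, VND7pro replicate 4, PXYpro replicate 7 or 9 or SCRpro replicate 17. The primary wall genes did not separate every xylem-related tissue from APLpro nuclei. CESA1 had a higher mean in APLpro (202) than in NST3pro nuclei (190), and CESA3 overlapped between these tissues. Neither difference was called (edgeR adjusted p 0.839 and 0.634). The APLpro libraries used lay on average between the PXYpro and SMXL5pro libraries for CESA4, CESA7 and CESA8. PXYpro over APLpro, CESA4, CESA7 and CESA8 had log2 fold changes of 0.82 ± 0.25, 0.29 ± 0.25 and 0.29 ± 0.23, none called, whereas SMXL5pro over APLpro they fell by 1.68, 2.31 and 1.94 on the log2 scale, all called, against 3.46% of all genes called lower. APLpro replicate 15, which the study left out, instead had 91.8 normalized read counts of CESA4, 63.5 of CESA7 and 42.1 of CESA8 in the scale of all 21 libraries, and its pseudogene share was 6.43%.

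Outer tissues (SCRpro and LTP1pro) differed from the 5 vascular groups in 1 member upward and 1 downward. CESA5 was higher, with a log2 fold change of 1.20 ± 0.12 (SE, edgeR adjusted p 4.84e-07), against 3.76% of all genes called higher. Its mean normalized read counts were 563 in SCRpro and 398 in LTP1pro nuclei, against 468 in VND7pro nuclei. For CESA5 the outer tissues were thus not above every vascular group. CESA4 was lower, at -1.10 ± 0.16 (adjusted p 2.87e-05), against 2.69% called lower. Mean normalized read counts of CESA4 were 919 in SCRpro and 304 in LTP1pro nuclei, against 674 in APLpro and 210 in SMXL5pro nuclei. The outer tissues were thus not below every vascular group. RLE scaling made 72.5% of all calls higher, against 58.3% with TMM. The change of CESA4 fell short of 2-fold with RLE or DESeq2 scaling (-0.96 in both) and without SCRpro replicate 17 (-0.99). With all 21 libraries CESA4 was not called (-0.60, adjusted p 0.381), whereas CESA6 was (1.28, adjusted p 0.000762). CESA6 had 0.86 ± 0.13 and passed the p threshold alone, as did CESA7 (-0.83 ± 0.16) and CESA8 (-0.87 ± 0.15). The 2 outer tissues themselves were unlike in the secondary wall set. In SCRpro over LTP1pro nuclei, CESA7 had a log2 fold change of 2.03 ± 0.27, CESA8 of 1.69 ± 0.25, CESA4 of 1.60 ± 0.26 and CESA3 of 1.43 ± 0.33, all called, against 6.69% of all genes called higher. LTP1pro replicate 19, which the study left out, had more CESA reads than the replicates it kept, with 733 normalized read counts of CESA4 and 1503 of CESA6.

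To compare levels between genes, counts were divided by gene body length and scaled to the same total in each library (TPM). The 10 members summed to 3234 ± 230 TPM in VND7pro nuclei (SD, n = 2), 1781 ± 225 in NST3pro (n = 2), 1515 ± 121 in SCRpro (n = 3), 1357 ± 37.3 in PXYpro (n = 3), 1286 ± 263 in APLpro (n = 2), 1048 ± 6.04 in LTP1pro (n = 2) and 746 ± 76.7 in SMXL5pro nuclei (n = 3). The secondary wall set had the wider range, from 2661 ± 183 TPM in VND7pro to 251 ± 36.8 TPM in SMXL5pro nuclei, while the other 7 genes together ranged from 822 ± 68.7 TPM in SCRpro to 431 ± 40.0 TPM in NST3pro nuclei. CESA4, CESA7 and CESA8 made up 82.3% ± 0.207 of CESA transcripts in VND7pro and 75.8% ± 0.821 in NST3pro nuclei. Their share was 57.4% ± 2.85 in APLpro, 56.1% ± 0.772 in PXYpro, 45.8% ± 0.536 in SCRpro, 33.6% ± 1.58 in SMXL5pro and 28.8% ± 0.816 in LTP1pro nuclei. The libraries used of different tissues did not overlap in this share, except those of APLpro and PXYpro.

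**Figure D3:**
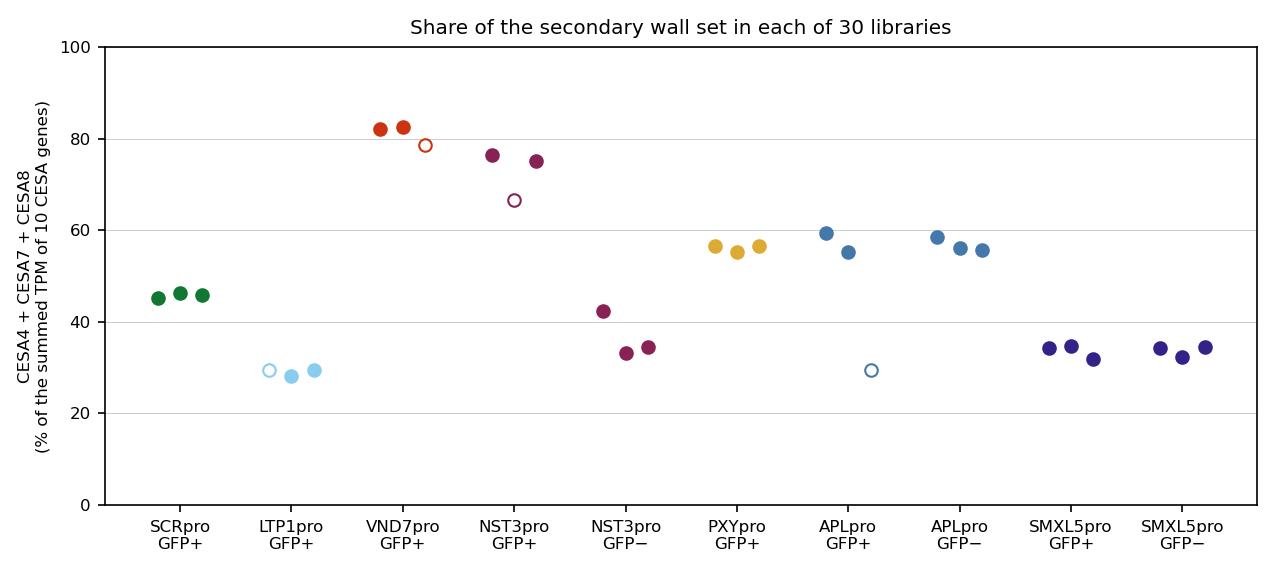
Share of CESA4, CESA7 and CESA8 in the summed TPM of the 10 CESA genes, in percent, in each of the 30 libraries. Open circles are the 4 libraries that the study left out among tissues. The share lies between 66.6% and 82.4% in the VND7pro and NST3pro GFP-positive libraries and between 28.2% and 59.4% in the others.

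The share also described the libraries that had been left out. LTP1pro replicate 19 had 29.5%, near the other replicates. VND7pro replicate 6 had 78.6%, against 82.1% and 82.4% in replicates 4 and 5, and NST3pro replicate 2 had 66.6%, against 76.3% and 75.2% in replicates 1 and 3. VND7pro replicate 6 also had 1912 TPM of CESA transcripts against 3397 and 3071 in VND7pro replicates 4 and 5. APLpro replicate 15, at 29.4% against 59.4% and 55.3% in replicates 13 and 14, lay far from its group, below the SMXL5pro libraries at 31.8% to 34.7%. Dividing by coding length instead of gene body length lowered every tissue's share, to 80.4% in VND7pro and to 26.5% in LTP1pro nuclei, without changing their order.

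Within the secondary wall set, vessel element nuclei differed from the others in their ratio of CESA8 to CESA7. Reads on CESA8 were 2.498 and 2.49 times those on CESA7 in the VND7pro replicates used and 2.44 times in the left-out replicate 6, although that library had fewer reads of both. NST3pro nuclei had ratios of 1.13 and 1.05 in the replicates used, but 1.995 in replicate 2. In the PXYpro, APLpro, SCRpro and SMXL5pro GFP-positive libraries used, the ratio lay between 0.731 and 1.24. The LTP1pro libraries used had 1.61 and 1.03. The ratio was not tested and varied at low depth, with 3.67 in NST3pro GFP-negative replicate 47, which had 725545 reads on genes.

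Among the other 7 members, CESA6 was on average the most abundant per length in every tissue except NST3pro, where CESA2 was. In APLpro replicate 13, however, CESA3 had 139 TPM and CESA6 128 TPM. CESA5 and CESA6 together made up 61.5% ± 1.61 of these transcripts in LTP1pro (SD, n = 2) and 55.3% ± 6.16 in SCRpro nuclei (n = 3), 49.1% ± 2.69 in SMXL5pro (n = 3), 48.9% ± 1.61 in VND7pro (n = 2), 43.1% ± 2.13 in PXYpro (n = 3), 40.2% ± 4.50 in APLpro (n = 2) and 33.5% ± 1.37 in NST3pro nuclei (n = 2). CESA2 took 32.5% in NST3pro nuclei and 14.1% to 21.8% elsewhere. CESA3 took 8.85% in SMXL5pro and 10.0% in LTP1pro nuclei, and 16.8% to 19.7% elsewhere. CESA9 and CESA10 were minor in all tissues. Their shares were highest in SMXL5pro nuclei for CESA10, at 5.83%, and CESA9, at 3.69%.

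**Figure D4:**
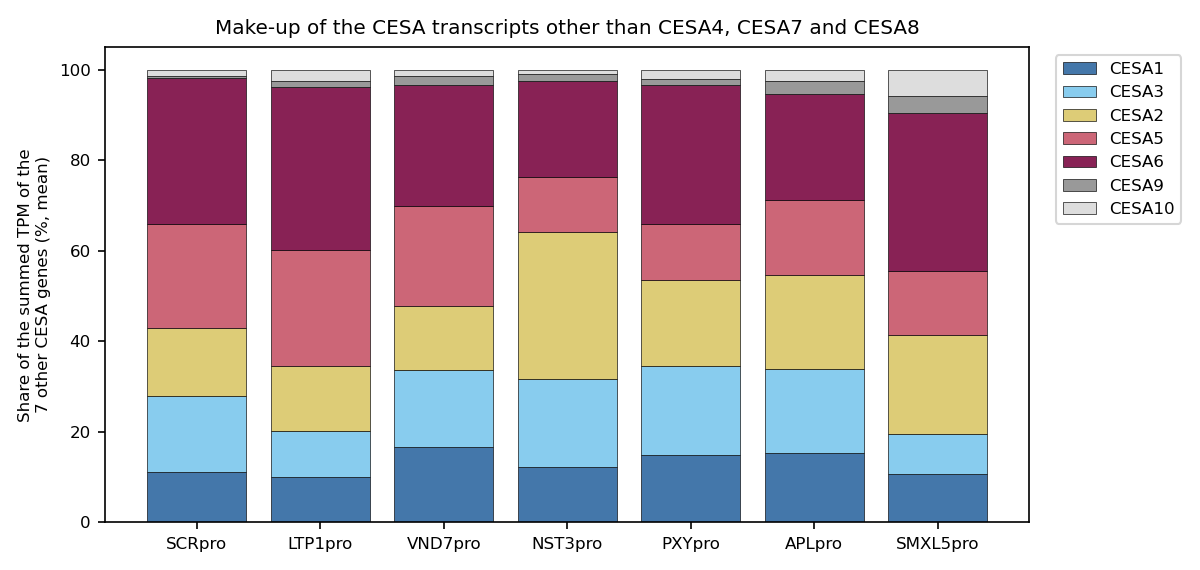
Mean share of each of the 7 other CESA genes in their summed TPM, in percent, for the 7 tissues (17 libraries). CESA5 and CESA6 take the largest part in LTP1pro nuclei, 61.5%, and the smallest in NST3pro nuclei, 33.5%, where CESA2 takes 32.5%.

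Members also varied together over the 17 libraries. As a description, the Pearson r of log2 CPM was 0.98 between CESA4 and CESA8, 0.96 between CESA4 and CESA7, 0.95 between CESA7 and CESA8, 0.95 between CESA1 and CESA3 and 0.88 between CESA5 and CESA6. Between CESA4 and CESA6 it was 0.31. These libraries share tissues and differ in depth and pseudogene share, and the points are not independent. Of 19930 other genes with an average log2 CPM of at least 3, those most similar to the mean of CESA4, CESA7 and CESA8 were AT2G28315 (r 0.99), IRX14 (0.99), GLP10 (0.98), UGE1 (0.98), IRX9 (0.98), AT1G68440 (0.98), TBL33 (0.98) and IRX12 (0.98). IRX9 and IRX14 are glycosyltransferases of xylan synthesis, IRX12 is the laccase LAC4, and UGE1 interconverts UDP-glucose and UDP-galactose. Those most similar to CESA1 and CESA3 were WIH2 (0.97), GAUT9 (0.97), a galacturonosyltransferase of the pectin family, PPI1 (0.96), AT2G12400 (0.96) and AT1G53210 (0.96). With all 21 libraries 6 of the 8 genes and 2 of the 5 stayed among the top 8 and top 5.

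Partners of the synthases were examined as lists of named genes. Of 15 genes for proteins that travel with or guide the complexes, 10 differed among the tissues at an adjusted p of 0.01 (edgeR, against 26.1% of all genes). KOR1 (AT5G49720), a membrane endoglucanase of the complex, had 1463 ± 72.6 normalized read counts in VND7pro (SD, n = 2), 950 ± 209 in SCRpro (n = 3), 653 ± 102 in PXYpro (n = 3), 611 ± 244 in APLpro (n = 2), 511 ± 40.3 in NST3pro (n = 2), 234 ± 35.7 in LTP1pro (n = 2) and 81.2 ± 14.1 in SMXL5pro nuclei (n = 3). CSI1 (AT2G22125), which links complexes to microtubules, had 451 ± 11.9 in VND7pro and 92.8 ± 30.5 in SMXL5pro nuclei. The kinesin light chain-related genes KLCR1 (CMU1, AT4G10840) and KLCR2 (CMU2, AT3G27960) had their highest means, 336 ± 22.2 and 561 ± 20.1, in VND7pro nuclei. CSI3 (AT1G77460), a relative of CSI1, was highest in LTP1pro nuclei at 101 ± 4.34. Over the mean of the other 6 tissues, 7 of the 15 genes were higher in VND7pro nuclei and none lower, against 9.06% and 1.97% of all genes, with a median log2 fold change of 1.09, and over NST3pro nuclei 4 were higher, against 3.98%, with a median of 0.65.

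Of 8 genes for proteins of cellulose assembly at the wall, 7 differed among the tissues, against 26.1% of all genes. The chitinase-like genes CTL2 (AT3G16920) and CTL1 (AT1G05850) had 2566 ± 14.9 and 1802 ± 25.6 normalized read counts in VND7pro nuclei and 71.4 ± 13.6 and 128 ± 27.5 in SMXL5pro nuclei. The GPI-anchored protein gene COBL4 (AT5G15630) had 1154 ± 35.0 and 61.1 ± 17.5 in these tissues. For the fasciclin-like genes FLA12 (AT5G60490) and FLA11 (AT5G03170) the means were 1095 ± 6.18 and 917 ± 4.75 in VND7pro, 769 ± 192 and 775 ± 232 in APLpro, and 35.8 ± 9.22 and 39.5 ± 11.8 in SMXL5pro nuclei. TED7, which did not pass (adjusted p 0.0371), averaged at most 27.5. Against the other 6 tissues 6 of the 8 were higher in VND7pro nuclei, against 9.06% of all genes, with a median log2 fold change of 2.06.

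The supply of the substrate UDP-glucose and the neighbouring CSLD family were examined in the same way. Of 10 sucrose synthase, invertase and UDP-glucose pyrophosphorylase genes, 3 differed among the tissues, which is near the 26.1% of all genes. The cytosolic invertase gene CINV1 (AT1G35580) had 281 ± 47.01 normalized read counts in VND7pro and 35.6 ± 2.52 in SMXL5pro nuclei, UGP1 (AT3G03250) 155 ± 0.435 and 61.7 ± 17.5, while SUS5 (AT5G37180) was highest in APLpro nuclei at 27.7 ± 0.100. SUS4 (AT3G43190) did not pass, with an adjusted p of 0.0287. Of 6 CSLD genes, which encode cellulose synthase-like proteins, 3 differed, against the same 26.1%. CSLD3 (AT3G03050) had 445 ± 136 in SCRpro nuclei, against 99.3 ± 3.15 in LTP1pro nuclei and less elsewhere, CSLD2 (AT5G16910) had 269.6 ± 123 in SCRpro nuclei and at most 114 on average elsewhere, and CSLD1 (AT2G33100) had 55.1 ± 6.63 in SCRpro and 50.4 ± 17.4 in LTP1pro nuclei. All 3 were higher in outer than in vascular tissues, against 3.76% of all genes, with a median log2 fold change of 0.90 over the 6 genes. CSLD4 (AT4G38190) had an adjusted p of 0.0213.

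Of 7 regulators of secondary wall formation, 4 differed among the tissues, against 26.1% of all genes. NST3 (AT1G32770) and NST1 (AT2G46770) had their highest means in NST3pro nuclei, with 183 ± 4.07 and 104 ± 34.5 normalized read counts (SD, n = 2), against 86.7 ± 8.94 and 80.2 ± 3.01 in VND7pro nuclei. MYB46 (AT5G12870), a direct target of these NAC factors, was highest in VND7pro nuclei at 165 ± 46.03, against 85.9 ± 16.8 in NST3pro nuclei, and VND6 (AT5G62380) had 70.8 ± 5.43 in VND7pro nuclei and at most 15.7 on average elsewhere. The promoter of NST3 marked the NST3pro nuclei, and NST1 and VND6 are among the marker genes of the tissues. The count of regulators that differed is therefore not independent of the sort and of the choice of libraries. In outer against vascular tissues NST3 (-1.15) and MYB46 (-1.27) were lower, as CESA4 was, against 2.69% of all genes.

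To determine whether sorting enriched CESA transcripts, both populations of nuclei were compared in each of 3 lines, with all 3 libraries of each population. No member was called at an adjusted p of 0.05 in any line (edgeR). All genes gave 0 calls of 25499 tested in the NST3pro line, or 0% (1508 at an unadjusted p under 0.05, and 111 called by DESeq2), 31 of 31181 or 0.0994% in the APLpro line and 2 of 30317 or 0.0066% in the SMXL5pro line. The spread between replicates was widest in the NST3pro line, where edgeR's common biological coefficient of variation was 0.898, against 0.431 in the APLpro line and 0.312 in the SMXL5pro line. DESeq2 called none of the members in these lines either. At an unadjusted p under 0.05, edgeR gave 3 of the 10 members in the NST3pro, 0 in the APLpro and 1 in the SMXL5pro line, against 1508 of 25499, 2962 of 31181 and 2045 of 30317 genes tested in these lines.

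In the NST3pro line, CESA4 had 2053, 1329 and 1557 normalized read counts in GFP-positive and 432, 478 and 257 in GFP-negative nuclei, a log2 fold change of 2.08 ± 0.45 (SE) with an unadjusted p of 0.00108 and an adjusted p of 0.813. CESA7 had 584, 250 and 591 in GFP-positive against 219, 108 and 129 in GFP-negative nuclei (1.64 ± 0.55), and CESA8 had 663, 500 and 618 against 201, 397 and 92.9 (1.37 ± 0.58). For 4 members, CESA4, CESA7, CESA8 and CESA10, all GFP-positive libraries lay above all GFP-negative ones, an arrangement found for 5.74% of all genes. CESA3 alone had the opposite arrangement, with 210, 171 and 199 against 213, 625 and 236, found for 3.79% of all genes. In a single fit of the 18 libraries of the 3 lines CESA4 was called in the NST3pro line, with a log2 fold change of 2.20 and an adjusted p of 0.0385. The library with the high CESA3, CESA6 and CESA9 values was GFP-negative replicate 47, which had 0 GFP reads, a pseudogene share of 6.41% and the fewest reads of all libraries. It also stood apart in the summed markers of SMXL5pro tissue (SMXL5, MOL1, PEAR1 and PEAR2), with 454 normalized read counts against 38.6 and 53.2 in GFP-negative replicates 46 and 48, and of APLpro tissue (APL, SEOR1 and NAC086), with 239 against 32.9 and 72.6. The summed markers NST3 and NST1 ranged from 177 to 247 in GFP-positive and from 47.4 to 137 in GFP-negative nuclei of this line, and their part in these differences was not tested.

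**Figure D5:**
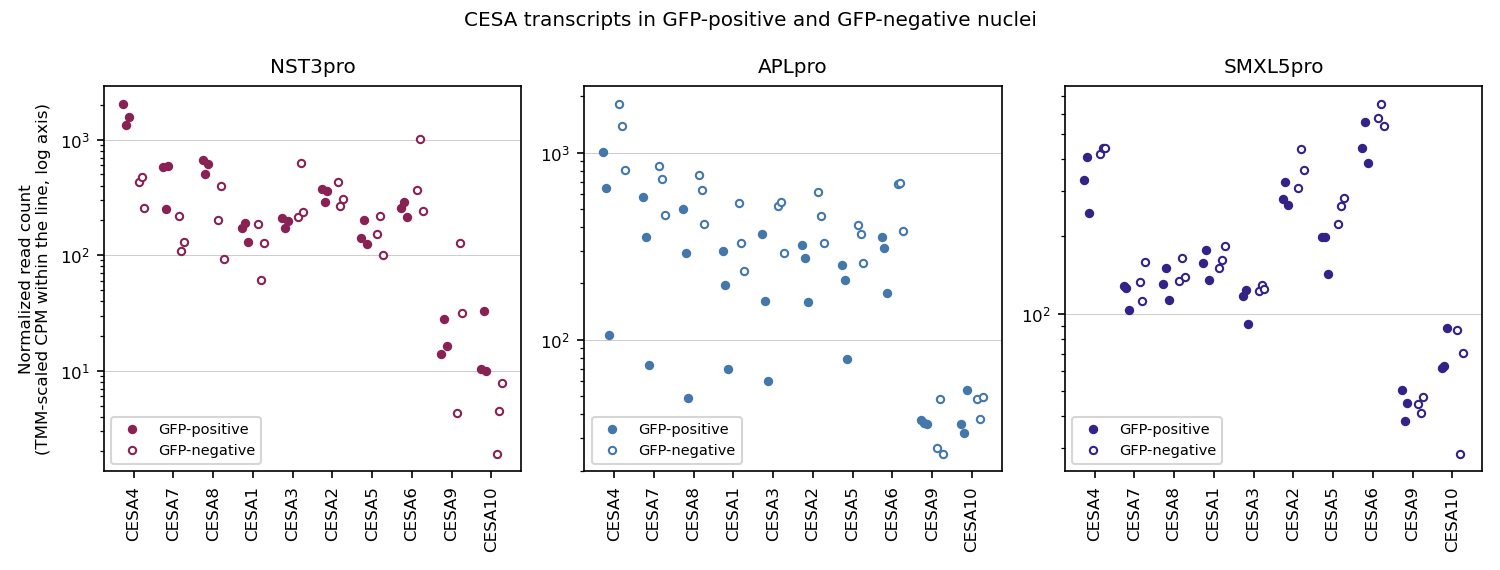
Normalized read counts (TMM-scaled CPM within each line, logarithmic axes) of the 10 CESA genes in GFP-positive (filled) and GFP-negative (open) nuclei of the NST3pro, APLpro and SMXL5pro lines; each point is 1 library. CESA4, CESA7 and CESA8 separate both populations in the NST3pro line and overlap in the APLpro line.

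In the APLpro line the direction was the opposite for most members, without any call. CESA4 had 1005, 650 and 107 normalized read counts in GFP-positive and 1827, 1388 and 802 in GFP-negative nuclei (log2 fold change -1.19 ± 0.82 SE, edgeR adjusted p 0.619). CESA1 to CESA8 had log2 fold changes between -1.21 and -0.90, and CESA9 and CESA10 0.15 and -0.16. The GFP-positive libraries lay below all GFP-negative ones for CESA2, CESA5 and CESA6, an arrangement found for 7.08% of all genes. For CESA1 to CESA8 the lowest value in GFP-positive nuclei belonged to replicate 15. In TPM, CESA9 was highest in replicate 15, with 20.0 against 14.4 and 15.5 in replicates 13 and 14. The share of the secondary wall set did not separate both populations, with 59.4%, 55.3% and 29.4% in GFP-positive and 58.5%, 56.2% and 55.7% in GFP-negative nuclei. The pseudogene share was 3.49% to 6.43% in GFP-positive and 2.00% to 4.10% in GFP-negative nuclei. Summed markers of vessel elements were 52.5 to 73.1 normalized read counts in GFP-positive and 78.6 to 99.7 in GFP-negative nuclei, and those of the epidermis (LTP1, FDH and CER6) 93.5 to 317 in GFP-positive and 350.5 to 822 in GFP-negative nuclei. Markers of SMXL5pro tissue had 107 to 136 in GFP-positive and 140 to 152 in GFP-negative nuclei. The sums overlapped for fiber markers (62.4 to 154 in GFP-positive, 140 to 167 in GFP-negative nuclei), PXYpro markers (61.1 to 204 and 195 to 316 in the same order) and starch sheath markers (54.1 to 141 and 124 to 190), and those of APLpro tissue itself were 148 to 183 in GFP-positive and 54.9 to 124 in GFP-negative nuclei. The part of these markers in the differences was not tested.

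In the SMXL5pro line differences between both populations were small. The log2 fold changes of the 10 members lay between -0.51 (CESA5) and 0.16 (CESA10), with SE of 0.20 to 0.36. CESA4 had 330, 408 and 245 normalized read counts in GFP-positive against 420, 440 and 443 in GFP-negative nuclei, and CESA5 had 198, 198 and 142 against 223, 262 and 282. For these 2 members all GFP-positive libraries lay below all GFP-negative ones, an arrangement of 6.6% of all genes. Summed vessel markers were 54.4 to 70.3 in GFP-positive and 68.7 to 99.1 in GFP-negative nuclei and epidermis markers 178 to 250.3 and 317 to 355, and their part was not tested. The secondary wall set made up 34.2%, 34.7% and 31.8% of CESA transcripts in GFP-positive and 34.2%, 32.4% and 34.5% in GFP-negative nuclei. The NST3pro line had shares of 42.3%, 33.1% and 34.4% in GFP-negative nuclei, which overlapped the SMXL5pro line and lay below the APLpro line.

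The effect of the sort was compared between lines in the fit of 18 libraries. For CESA4 the lines NST3pro and APLpro differed, with a difference of log2 fold changes of 3.36 ± 0.74 (SE, edgeR adjusted p 0.0470), against 0.147% of all genes called in this direction. CESA7 (2.69 ± 0.74, adjusted p 0.0969) and CESA8 (2.62 ± 0.77, 0.111) did not pass. No member was called between the NST3pro and SMXL5pro lines, where CESA4 had 2.57 ± 0.73 (0.168), or between the SMXL5pro and APLpro lines, against 0.00313% and 0.00627% of all genes. The call for CESA4 was lost in 12 of the 18 fits that left out 1 library, with adjusted p up to 0.14 without APLpro GFP-negative replicate 43, and with RLE size factors (0.0883). Without the pair of libraries of these lines that the study left out among tissues, NST3pro replicate 2 and APLpro replicate 15, 3 calls were made, CESA4 and CESA7 between the NST3pro and APLpro lines and CESA4 between the NST3pro and SMXL5pro lines.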

How the data were processed

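Nuclei were isolated from inflorescence stems by fluorescence-activated nucleus sorting, 15000 per library except 10800 for LTP1pro replicate 21, and their mRNA was amplified by the SMART-seq2 protocol without molecular identifiers. The deposited read counts per gene were made by the authors, who trimmed reads with cutadapt 2.3, aligned them to TAIR10 with STAR 2.5.0a and kept unique hits. They counted reads over whole gene bodies of Araport11, introns included and strand ignored, so antisense partners cannot be told apart and reads shared by overlapping genes were dropped. When more preparations existed than needed, the authors had chosen those with the best H4-GFP contrast by PCR. The files held 37051 genes, and the 9 libraries deposited in more than 1 table differed in 0 genes between copies. A row for the GFP transgene was kept out of library sizes.

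Counts were analysed with edgeR 4.0.16 in R 4.3.3 (TMM normalization, filterByExpr, quasi-likelihood F test, Benjamini-Hochberg adjustment over all genes tested). Tissues were compared in 1 fit of 17 libraries at an adjusted p of 0.01, contrasts also at more than 2-fold, and each sort in a fit of 6 libraries at an adjusted p of 0.05. The effect of the sort was compared between lines in a fit of 18 libraries. Alternatives were all 21 GFP-positive libraries, DESeq2 1.42.0, RLE size factors, no filter, and each library left out. Gene models, promoters and coding lengths came from RefSeq TAIR10.1. TPM, computed here, used gene body length. Python 3.11.15 with pandas 2.3.3 and matplotlib 3.10.9 served for tables and plots. Scripts were tested on simulated data. All 10 members were named. Of each list of partners, the 4 genes with the lowest adjusted p in the test across tissues were named, 1 of them, not annotated under its name, by count only. CSI1, CSI3, CTL1 and TED7 were singled out after their values were seen. The 8 and the 5 genes most similar to the secondary and primary wall synthases were ranked by Pearson r of log2 CPM (prior count 2). The members and lists were chosen with earlier results of these data known. Reads on genes numbered 1918733 to 18335693 per GFP-positive library and 725545 to 13026007 per GFP-negative library. Amplified reads are not independent molecules, so low counts carry more error than their number shows.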

Additional observations from a re-analysis of the deposited data

Results flagged for a closer look

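The effect of sorting on CESA4 differed between lines. The difference of log2 fold changes between the NST3pro and APLpro lines was 3.36, by a test of the difference itself in 1 fit of 18 libraries (edgeR adjusted p 0.0470). GFP-positive nuclei were above GFP-negative nuclei in all 3 libraries of the NST3pro line, whereas the populations of the APLpro line overlapped. Over the alternatives the adjusted p ranged from 0.00951 with DESeq2 to 0.14 without APLpro GFP-negative replicate 43. In the NST3pro line, summed fiber markers (NST3 and NST1) were 177 to 247 normalized read counts in GFP-positive and 47.4 to 137 in GFP-negative nuclei, and in the APLpro line 62.4 to 154 in GFP-positive and 140 to 167 in GFP-negative nuclei. Summed vessel markers (XCP1, VND6 and VND7) were 17.5 to 51.7 in GFP-positive and 19.4 to 45.3 in GFP-negative nuclei for NST3pro, and 52.5 to 73.1 in GFP-positive and 78.6 to 99.7 in GFP-negative nuclei for APLpro. The part of these markers was not tested.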

How the results depend on the processing

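With all 21 GFP-positive libraries, 5 CESA genes differed among the tissues, 0 were called in VND7pro over NST3pro, 0 in VND7pro over PXYpro, 3 in PXYpro over SMXL5pro nuclei, 2 in VND7pro over the other 6 tissues and 4 in xylem-related over phloem-related tissues, the last also with DESeq2, RLE size factors or no filter on low counts. DESeq2 and RLE size factors each gave 1 call in outer over vascular tissues, and a single fit of 18 libraries gave 1 in the NST3pro sort. For the difference in the sort effect, DESeq2 gave 2 calls, RLE size factors 0 and no filter on low counts 0. Leaving out each library in turn gave 2 to 4 calls in VND7pro over NST3pro, 2 to 4 in VND7pro over PXYpro, 5 to 8 in PXYpro over SMXL5pro, 3 to 5 in VND7pro over the other 6 tissues, 1 to 2 in outer over vascular tissues and 0 to 2 for the difference in the sort effect, which reached 3 without both NST3pro replicate 2 and APLpro replicate 15. That joint setting, the counts of pairs of tissues under other settings and the order of tissues under other settings were chosen after seeing the data. None of the values computed changed sign past a threshold. The causes of these changes were not tested. Of all genes, edgeR called 8527 among the tissues, 5449 with all 21 libraries and DESeq2 14135. The counts were 2093, 614 and 4163 in VND7pro over NST3pro and 2319, 686 and 4023 in VND7pro over PXYpro nuclei. All 21 libraries gave 2106 against 4708 in PXYpro over SMXL5pro, 1661 against 3604 in VND7pro over the other 6 tissues and 4744 against 7764 in xylem-related over phloem-related tissues. In the sorts DESeq2 called 111 against 0 in the NST3pro, 74 against 2 in the SMXL5pro and 170 against 31 in the APLpro line, and the fit of 18 libraries 845, 0 and 17 in these 3 sorts. Between the NST3pro and APLpro lines the sort effect differed for 139 genes, 1550 with DESeq2 and 85 with RLE size factors, which made 20.0% of these calls higher against 33.8%. For the other pairs of lines DESeq2 called 731 against 1 (NST3pro and SMXL5pro) and 24 against 2 (SMXL5pro and APLpro). The authors took both populations from the same line and chose preparations by their contrast, so the libraries of a sort may come in pairs. The labels number the libraries serially and do not name such pairs, so any pairing was left out of the tests. The levels of CESA9 and CESA10, in places near the density of reads on pseudogenes, limit what can be said of them.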
